A study of Mus musculus with 69 samples.

Results

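WT–mCherry cells taken from WT + p53KO gastruloids at 96 h were compared with WT–mCherry cells taken from WT + WT gastruloids at 96 h. Each group had 3 libraries, and these 6 were chosen from the 69 bulk RNA sequencing libraries of the series by their labels alone. Libraries with the same replicate number were compared as pairs, over all genes. The comparison asks how the transcripts of a WT cell differ when its neighbours lack p53.

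All cells were clones of the mouse embryonic stem (mES) cell line E14Tg2A, aggregated into gastruloids, free-floating structures that pass from pluripotency to early body-axis formation in culture. WT–mCherry is a single clone with H2B–mCherry under the EF1α promoter, and WT–emiRFP is a single clone with H2B–emiRFP670 under the CAG promoter. The p53KO–emiRFP clone was derived from WT–emiRFP, selected with Nutlin-3a, and carries a homozygous frameshift in exon 4 of Trp53. A WT + WT gastruloid was seeded with 150 WT–mCherry and 150 WT–emiRFP cells, and a WT + p53KO gastruloid with 150 WT–mCherry and 25 p53KO–emiRFP cells. All received a pulse of the Wnt agonist CHIR99021 between 48 and 72 h. The neighbours therefore differed in genotype, clone and seeded number, which cannot be told apart in this design. Cells were separated by FACS on their fluorescence, and the purity of the sorted cells was not examined.

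p53, the product of Trp53, is a transcription factor that stressed cells stabilise and that switches on genes of cell-cycle arrest, apoptosis and metabolism. In the early mouse embryo, pluripotent cells with more p53 activity than their neighbours can be eliminated by them, a form of cell competition. The integrated stress response, in which phosphorylation of eIF2α raises translation of the transcription factor Atf4, is another pathway known from such loser cells.

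The 6 libraries held 46254303 to 57445005 counts, and the 69 of the series 26722541 to 72981570. Trp53 had 15963, 15781 and 15643 beside p53KO cells and 15950.1, 16902 and 16306 beside WT cells, in normalised counts, and 1722 ± 8.78 (SD, n = 3) in the p53KO–emiRFP cells of the same gastruloids. The groups overlapped, and the log2 fold change was −0.05 ± 0.03 (SE, edgeR adjusted p = 0.33). Posterior epiblast and mesoderm markers were abundant in these libraries, with group means of 7182 and 7612 for Tbx6, and 13965 and 13749 for the pluripotency factor Pou5f1. Of the extraembryonic endoderm markers Afp and Ttr were near 0, with means of 0 and 1.07 and of 2.40 and 1.37, whereas others such as Lama1 were expressed, and the whole list summed to 8647 to 10336 normalised counts beside p53KO and 8340 to 10053 beside WT cells. Because each library pools many cells, fewer cells of a type and less RNA per cell cannot be told apart.

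H2bc14, 1 of 3 H2B genes with high counts in the emiRFP clones, had 155, 328 and 112 beside p53KO cells and 66.4, 105 and 32.8 beside WT cells, against 8269 ± 855 (SD, n = 3) in p53KO–emiRFP and 8246 ± 616 in WT–emiRFP cells at 96 h. All 3 libraries beside p53KO cells were above all 3 beside WT cells, with a log2 fold change of 1.54 ± 0.14 (edgeR adjusted p = 2.0e-05, 0.11 without the pairing). If emiRFP cells were the only source of H2bc14, which was not tested, they gave 1.92, 3.57 and 1.48% of the RNA beside p53KO cells. On the same reading they gave 0.877, 1.20 and 0.391% in the libraries beside WT cells. H2bc7 had 92.1, 185 and 48.0 beside p53KO cells and 37.8, 48.6 and 20.1 beside WT cells, and H2bc21, with 595 ± 59.1 in p53KO–emiRFP cells, had 43.9, 49.1 and 36.0 beside p53KO cells and 19.5, 36.7 and 32.8 beside WT cells. All 3 of their pairs were higher beside p53KO cells, and the groups of H2bc7 and H2bc21 overlapped. By the H2bc21 level the shares were 7.89, 7.41 and 6.37% beside p53KO cells and 4.05, 6.47 and 6.91% beside WT cells. WT–mCherry mES cells before aggregation had 18.3 ± 10.3 of H2bc21 and 7.24 ± 1.01 of H2bc14 (SD, n = 3 each). This background was not taken off, so the shares by H2bc21 may be too high and the subtraction by it too large. After subtraction of emiRFP-cell RNA in these proportions 3206 genes passed by H2bc14 and 3183 by H2bc21, where 3145 passed without it, and the count after subtraction is given for the p53, stress response, MHC, endoderm and intermediate mesoderm lists. Mitochondrially encoded genes took 1.22, 1.00 and 1.29% of the counts beside p53KO cells and 1.13, 1.26 and 1.53% beside WT cells, and their part in the results was not tested.

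At 96 h, 3145 of 17604 genes tested differed by neighbour (17.9%; edgeR quasi-likelihood test with the replicate pairs in the model, adjusted p under 0.05). Of these, 1849 were higher (10.5% of the genes tested) and 1296 lower (7.36%) beside p53KO cells. Most differences were small. The median log2 fold change was 0.32 among the higher and −0.18 among the lower genes, and 83 and 20 genes moved by at least 1 on this scale. The 3 libraries beside p53KO cells were all above those beside WT cells for 13.9% of the genes tested, and all below for 10.4%, and 51.0% had the same sign in all 3 pairs. The number of calls rests on the pairing. Without it 275 genes passed, 214 of them higher, and with DESeq2 on the same pairs 1667 passed. Replicate 2 carried many calls, since 1297 genes passed without that pair.

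**Figure D1:**
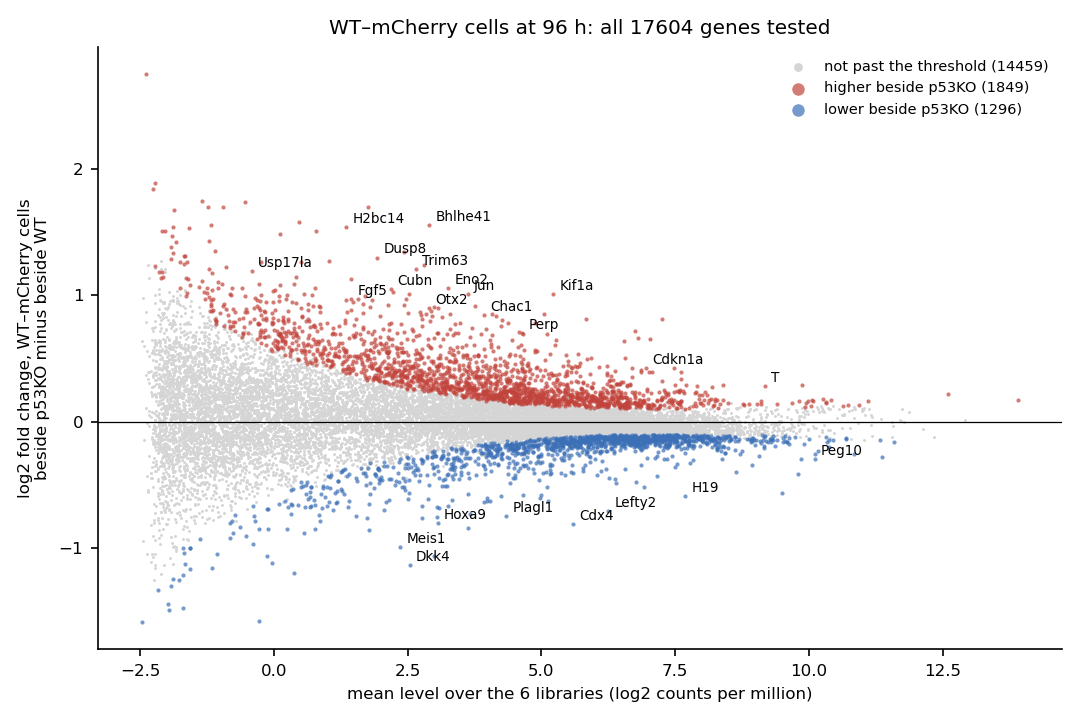
Each point is 1 of the 17604 genes tested, with its mean level over the 6 libraries (edgeR log2 CPM) on the horizontal axis and the log2 fold change of WT–mCherry cells beside p53KO minus beside WT on the vertical axis. Red marks the 1849 genes higher and blue the 1296 genes lower beside p53KO cells, most of them within 1 log2 unit of 0.

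Bhlhe41, a circadian repressor of the basic helix-loop-helix family, led the 15 largest rises among genes with a mean of at least 1 log2 CPM that kept 1 direction in all 3 pairs and also passed in an unpaired fit of all 12 libraries of 96 h. That last limit left out larger rises such as that of Cubn (1.05). Bhlhe41 had 731, 667 and 370.1 beside p53KO cells and 228, 205 and 157 beside WT cells, a 2.95-fold rise (log2 fold change 1.56 ± 0.10, edgeR adjusted p = 1.7e-06). The lowest library beside p53KO cells was above the highest beside WT cells. Dusp8, a phosphatase of stress-activated kinases, had 359, 284 and 211 beside p53KO cells and 114, 131 and 95.8 beside WT cells (1.30 ± 0.12, adjusted p = 2.6e-05), again without overlap. Jun, the AP-1 subunit that these kinases activate, had 1098, 982 and 534 beside p53KO cells and 514, 441 and 318 beside WT cells (1.01 ± 0.08, adjusted p = 6.0e-06). The groups of Jun did not overlap, but replicate 3 beside p53KO cells stood close to replicate 1 beside WT cells.

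Trim63, a ubiquitin ligase of muscle atrophy, had 545, 485 and 349.8 beside p53KO cells and 215, 198 and 178 beside WT cells (1.21 ± 0.09, adjusted p = 6.2e-06). Kif1a, a neuronal kinesin motor, was the most abundant of these 15 genes, with 2843, 2938 and 2062 beside p53KO cells and 1267, 1364 and 1217 beside WT cells (1.01 ± 0.06, adjusted p = 1.7e-06). The neuron-type enolase Eno2 had 787, 786 and 469.7 beside p53KO cells and 341, 363 and 264 beside WT cells (1.06 ± 0.08, adjusted p = 5.4e-06). For all 3 of these genes every library beside p53KO cells was above every library beside WT cells. The glutamine transporter Slc38a3 rose by 1.02 ± 0.10, the Wnt-potentiating receptor Lgr6 by 1.00 ± 0.12, the T-box factor Tbx4 by 0.97 ± 0.12 and the lysosome-associated glycoprotein Gpnmb by 0.97 ± 0.11 in log2 units. Hrc, Zfr2, Defa30, Gm45847 and H2bc14 completed these 15, at 1.27, 1.13, 0.97, 1.34 and 1.54. In the p53KO–emiRFP cells themselves several of these transcripts were scarce. Gpnmb had 18.5 ± 2.68 normalised counts there and 192 ± 31.0 in WT–emiRFP cells, Trim63 69.3 ± 8.74 and 308 ± 40.8, and Jun 206 ± 16.1 and 669.9 ± 133 (SD, n = 3 each).

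Dkk4, a secreted Wnt antagonist that is itself a Wnt target, led the 15 largest falls under the same limits, which left out Foxc2, Cdx4 and Hoxa9 at −0.84, −0.81 and −0.80. Dkk4 had 178, 188 and 197 beside p53KO cells and 452, 434 and 359 beside WT cells (log2 fold change −1.14 ± 0.10, edgeR adjusted p = 1.9e-05), with no overlap. Meis1, a homeobox partner of Hox proteins, had 166, 144 and 219 beside p53KO cells and 332, 272 and 452 beside WT cells (−0.99 ± 0.09, adjusted p = 2.0e-05). In each group replicate 3 was the highest for Meis1, and the groups did not overlap.

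Lefty2, a secreted inhibitor of Nodal, was the most abundant of these 15, with 2496, 2976 and 3595 beside p53KO cells and 4234, 4838 and 5677 beside WT cells (−0.71 ± 0.04, adjusted p = 3.4e-07). Replicate 1 was the lowest and replicate 3 the highest in both groups, and the groups did not overlap. Plagl1, an imprinted zinc-finger regulator of growth, had 831, 665 and 887 beside p53KO cells and 1323, 1228 and 1426 beside WT cells (−0.74 ± 0.06, adjusted p = 5.4e-06). The neurotrophin receptor Ngfr fell by 0.73, the folate receptor Folr1 by 0.68, the integrin Itgb3 by 0.70 and the meiotic Aurora kinase Aurkc by 0.70 in log2 units, and Gsta3, Accsl, Cpsf4l, Zp3 and Esam by 0.76, 0.75, 0.68, 0.65 and 0.64. Without the pairing Jun (adjusted p = 0.071) and H2bc14 among the rises and Gsta3, Accsl, Zp3 and Esam among the falls (0.055 to 0.075) did not pass.

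**Figure D2:**
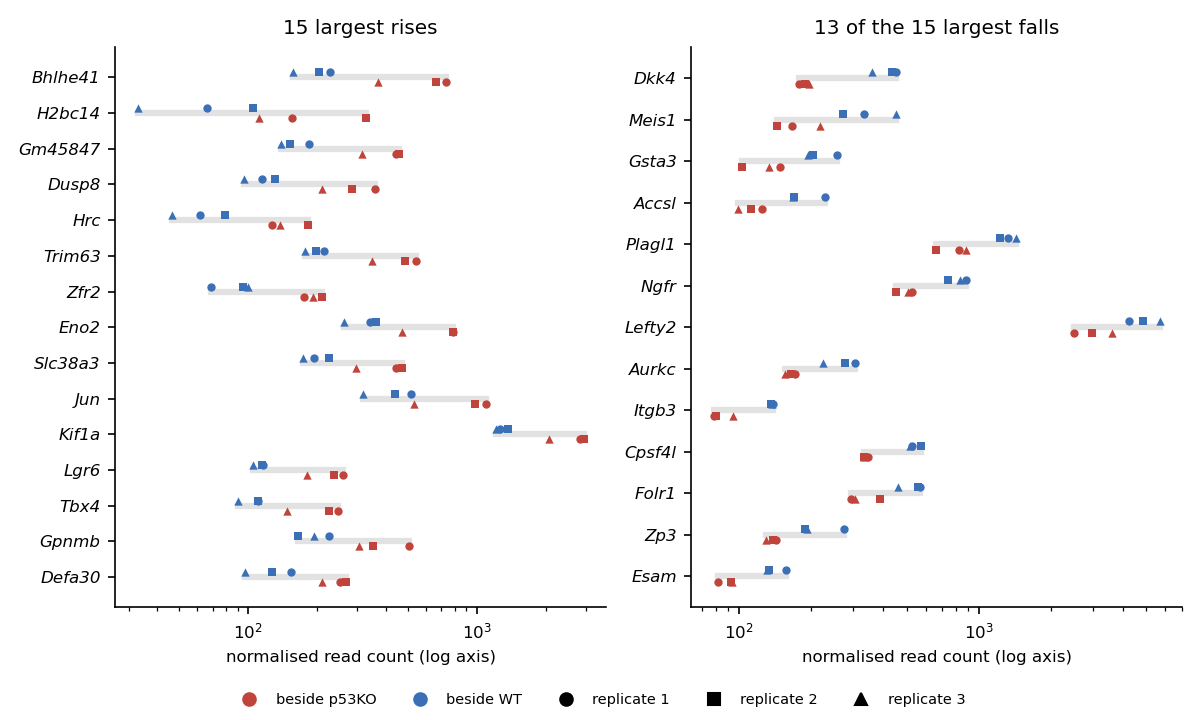
Normalised read counts on a log axis of the 15 largest rises (left) and 13 of the 15 largest falls (right) under the limits given above in each of the 6 libraries, with WT–mCherry cells beside p53KO in red and beside WT in blue and a marker shape for each replicate. For every gene shown, all 3 red points lie on the same side of all 3 blue points.

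Genes of named processes were read as lists, whose members were chosen with earlier results of these data known. Apart from the 3 H2B genes of the emiRFP clones, of which 2 rose and which the plot of the lists leaves out, the lists with the highest share of risen members were the two-cell-like state (11 of 11 tested), the integrated stress response (21 of 22), MHC class I and interferon response (15 of 22) and p53 targets (25 of 44), where 10.5% of all genes rose. Those with the highest share of fallen members were DNA replication and G1/S (20 of 30), mitosis and G2/M (18 of 28), the retinoic acid pathway (7 of 13) and naive pluripotency (10 of 19), where 7.36% of all genes fell. No member of the 24 nuclear oxidative phosphorylation subunits passed the edgeR threshold in either direction, although 3 were lower at an unadjusted p under 0.05, and DESeq2 called none.

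**Figure D3:**
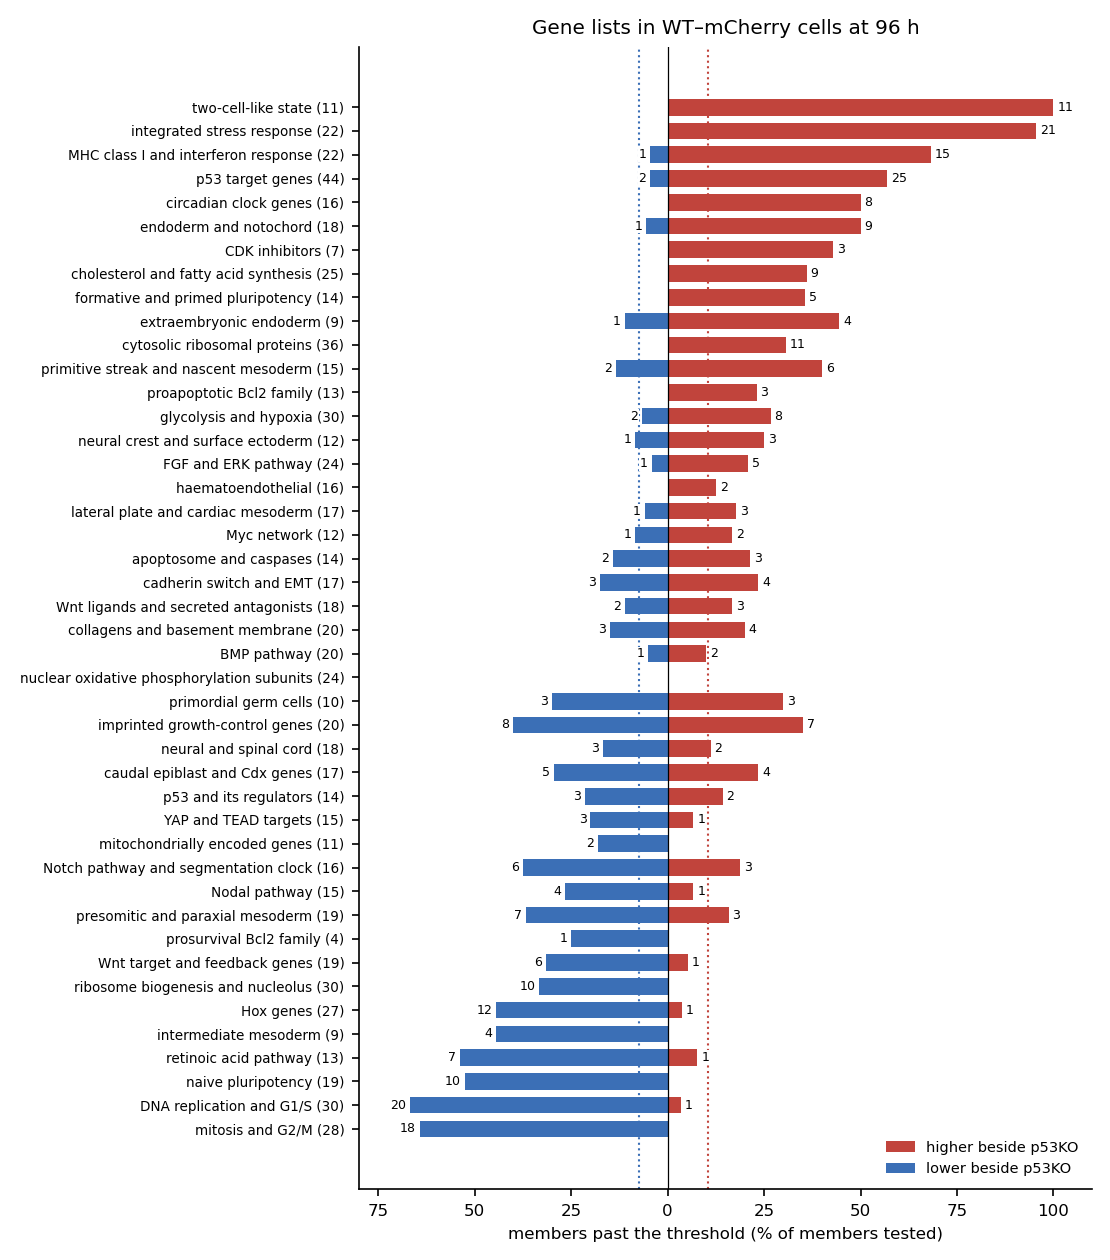
Bars give the percentage of tested members of each gene list (number tested in brackets) that were higher (red, to the right) or lower (blue, to the left) beside p53KO cells at 96 h, with the number of members at the end of each bar. Dotted lines mark the same percentages over all 17604 genes tested, 10.5 and 7.36.

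Changes in p53 targets were small and mostly upwards. Of 44 members, 25 rose and 2 fell (Tigar by 0.21 and Phlda3 by 0.17), with a median log2 fold change of 0.18 where the median over all genes was 0.00. Perp, an apoptosis-associated desmosomal protein, had 1876, 1687 and 1309 beside p53KO cells and 1162, 1021 and 807 beside WT cells (log2 fold change 0.70 ± 0.05, edgeR adjusted p = 1.9e-06). Every library beside p53KO cells was above every library beside WT cells. The Cdk inhibitor Cdkn1a, the arrest effector of p53, had 7799, 7811 and 6674 beside p53KO cells and 5788, 5927 and 4903 beside WT cells (0.42 ± 0.03, adjusted p = 6.0e-06). Mdm2, the ubiquitin ligase that degrades p53, had 8896, 7964 and 7097 beside p53KO cells and 6323, 5838 and 5952 beside WT cells (0.40 ± 0.04, adjusted p = 8.2e-05), and neither gene overlapped between groups.

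Among the less abundant targets, the autophagy regulator Dram1 had 63.8, 66.9 and 43.4 beside p53KO cells and 35.5, 34.9 and 24.6 beside WT cells (0.87 ± 0.19, adjusted p = 0.0078). The death receptor gene Fas rose by 0.62 ± 0.19 (adjusted p = 0.042), the stress hormone Gdf15 by 0.61 ± 0.16 (0.020), the long non-coding RNA Trp53cor1, whose reads may include those of overlapping genes because strand is not known, by 0.58 ± 0.13 (0.0074) and the epoxide hydrolase Ephx1 by 0.52 ± 0.11 (0.0053). Abundant targets that did not pass were the exonuclease gene Aen, with group means of 10389 ± 149 beside p53KO and 10739.8 ± 375 beside WT cells (SD, n = 3 each), Rps27l with 9080.3 ± 89.4 and 9093 ± 424, and Gpx1 with 10899 ± 406 and 11852 ± 1065. The p53-family gene Trp73 had 759, 821 and 556 beside p53KO cells and 501, 563 and 422 beside WT cells (0.51 ± 0.07, adjusted p = 0.00025), with overlapping groups. The checkpoint kinase genes Chek2 and Chek1 fell by 0.24 and 0.16.

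In p53KO–emiRFP cells of the same gastruloids 23 of the 25 risen targets had a lower mean than in WT–mCherry cells beside WT cells. Over all 1849 risen genes 721 did. Cdkn1a had 2182 ± 326 normalised counts there, and Perp 322 ± 58.0 (SD, n = 3 each). After subtraction of emiRFP-cell RNA by H2bc14, 26 targets were higher. Without the pairing edgeR called 7 targets higher and 0 lower (24 and 2 at an unadjusted p under 0.05, and 19 and 2 by DESeq2 with the pairs), and 13 and 2 without replicate 2.

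Among 13 pro-apoptotic Bcl2-family genes 3 rose, and these were Hrk, Bbc3 and Bnip3. Hrk, a BH3-only protein of neuronal death, had 210.3, 203 and 161 beside p53KO cells and 103, 104 and 89.4 beside WT cells (0.95 ± 0.12, adjusted p = 0.0002). Bbc3, which encodes Puma, had 2354, 2296 and 1907 beside p53KO cells and 1782, 1652 and 1629 beside WT cells (0.37 ± 0.05, adjusted p = 0.00036). Both genes were without overlap, whereas the pore-forming effectors Bax and Bak1 had log2 fold changes of −0.04 ± 0.04 and 0.03 ± 0.04 that did not pass. The unpaired fit called 1 pro-apoptotic gene higher, and 2 were higher by DESeq2 with the pairs and 2 without replicate 3. Of 4 pro-survival genes tested, Mcl1 fell by 0.20 (adjusted p = 0.012). Of 14 apoptosome and caspase genes, 3 rose (among them Casp6 by 0.21 and Apaf1 by 0.18) and 2 fell (cytochrome c gene Cycs −0.18 and survivin gene Birc5 −0.17). With no pairing, edgeR called none of the apoptosome, caspase and pro-survival genes, although 3 apoptosome and caspase genes were higher and 2 lower at an unadjusted p under 0.05, and 1 pro-survival gene was lower at that p. DESeq2 with the pairs called 1 apoptosome and caspase gene higher and 2 lower and no pro-survival gene. Leaving out replicate 2, edgeR called no apoptosome or caspase gene, with 3 higher and 3 lower at an unadjusted p under 0.05.

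The integrated stress response rose almost throughout, with 21 of 22 members higher and none lower, a median log2 fold change of 0.27 and a positive value for all 22. Asns was the member that did not pass (0.15 ± 0.05, adjusted p = 0.075). Atf4 and its partners bind C/EBP–ATF composite elements in the promoters of such genes. Of the 22 members 20 had a promoter in the RefSeq-derived table for GRCm38.p6, and 7 of these (35.0%) held the core TGATGNAA on either strand within 250 bases before a start site, against 3.91% of 27025 genes. The element is written here in capitals for the 3 risen members with the largest fold changes among those 7, and reads on the opposite strand in each. Chac1 lies on the plus strand at chr2:119350992-119351241, Vldlr on the plus strand at chr19:27216770-27217019 and Nupr1 on the minus strand at chr7:126625471-126625720. The matches begin 193, 200 and 110 bases before the start site.
Chac1: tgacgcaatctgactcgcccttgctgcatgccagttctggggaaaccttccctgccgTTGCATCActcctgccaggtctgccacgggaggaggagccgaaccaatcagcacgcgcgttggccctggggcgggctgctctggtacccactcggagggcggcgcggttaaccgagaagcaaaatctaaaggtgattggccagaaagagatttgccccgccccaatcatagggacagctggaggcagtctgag
Vldlr: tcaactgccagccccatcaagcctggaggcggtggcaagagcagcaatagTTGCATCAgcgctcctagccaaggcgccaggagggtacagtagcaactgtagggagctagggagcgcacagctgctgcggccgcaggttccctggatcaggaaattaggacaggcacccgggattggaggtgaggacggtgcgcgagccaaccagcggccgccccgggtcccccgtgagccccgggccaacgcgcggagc
Nupr1: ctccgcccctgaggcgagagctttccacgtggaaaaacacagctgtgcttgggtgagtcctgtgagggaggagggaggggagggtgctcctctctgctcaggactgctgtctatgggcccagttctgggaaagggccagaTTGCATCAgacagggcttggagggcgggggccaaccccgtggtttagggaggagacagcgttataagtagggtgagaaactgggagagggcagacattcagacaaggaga

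Chac1, which degrades glutathione, had 991, 1264 and 782 beside p53KO cells and 554, 776 and 382 beside WT cells, a 1.80-fold rise (log2 fold change 0.85 ± 0.07, edgeR adjusted p = 7.5e-06). Ddit3, the gene of the pro-apoptotic factor Chop, had 735, 816 and 528 beside p53KO cells and 393, 471 and 343 beside WT cells (0.78 ± 0.07, adjusted p = 2.3e-05). The pseudokinase Trib3 had 1022, 1304 and 820.4 beside p53KO cells and 759.9, 812 and 488 beside WT cells (0.62 ± 0.07, adjusted p = 6.5e-05). For all 3 genes the groups did not overlap. Vldlr, a lipoprotein receptor, had 1632, 1625 and 1520.0 beside p53KO cells and 1083, 1147 and 989 beside WT cells (0.57 ± 0.05, adjusted p = 1.0e-05), Cebpb, an Atf4 partner, rose by 0.75 ± 0.17 and the mitochondrial folate enzyme Aldh1l2 by 0.63 ± 0.10, also without overlap.

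Most of these transcripts were also more abundant in p53KO–emiRFP cells than in WT–mCherry cells beside WT cells, 20 of the 21 risen members by their means. Over all 1849 risen genes 1128 were. Chac1 had 1496 ± 319 normalised counts in p53KO–emiRFP and 484 ± 182 in WT–emiRFP cells, and Trib3 1700.4 ± 251 and 634 ± 167 (SD, n = 3 each). With emiRFP-cell RNA subtracted by H2bc14 19 members were higher and by H2bc21 17. Without the pairing edgeR called 2, with 15 at an unadjusted p under 0.05, and DESeq2 with the pairs 16.

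Genes of antigen presentation and the interferon response had a median log2 fold change of 0.44. Of 22 members 15 were higher, and Ifitm1 was lower by 0.12. Tap1, a subunit of the peptide transporter that loads MHC class I, had 1593, 1622 and 1266 beside p53KO cells and 985, 1046 and 932 beside WT cells (0.59 ± 0.06, adjusted p = 2.5e-05), with no overlap. Its partner Tap2 had 291, 382 and 195 beside p53KO cells and 169, 213 and 135 beside WT cells (0.73 ± 0.10, adjusted p = 0.00043), where replicate 3 beside p53KO cells lay below replicate 2 beside WT cells. The immunoproteasome gene Psmb9 had 244, 306 and 209 beside p53KO cells and 168, 202 and 128 beside WT cells (0.62 ± 0.10, adjusted p = 0.0012). Psmb9 did not overlap. The class I heavy chain genes H2-K1 and H2-D1, whose reads may be shared, rose by 0.42 ± 0.04 and 0.46 ± 0.05, and the light chain gene B2m by 0.30 ± 0.05. Interferon-induced genes were scarcer, and Ifit1 had 34.5, 64.8 and 14.8 beside p53KO cells and 19.5, 34.9 and 7.30 beside WT cells (0.89 ± 0.23, adjusted p = 0.020). Rsad2 had 39.8, 40.8 and 24.0 beside p53KO cells and 17.2, 26.6 and 13.7 beside WT cells (0.85 ± 0.24, adjusted p = 0.031). Ifit1 and Rsad2 both overlapped between groups, and the interferon regulator Irf7 rose by 0.73 ± 0.20 (0.024). The sensor gene Ddx58, Irf9 and Ifitm2 did not pass, at −0.10, −0.10 and 0.06. Without the pairing 3 members were higher, and without replicate 2 11, and after subtraction of emiRFP-cell RNA by H2bc14 15.

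An interferon-stimulated response element, searched as GAAANNGAAA on both strands, lay in the same window of 7 of 20 members with a promoter in the table (35.0%), against 3.46% of all 27025 genes. The windows of the 2 risen members with the largest fold changes among those 7 are shown with the element in capitals. Ifit1 lies on the plus strand at chr19:34640639-34640888 and holds 2 matches, which begin 104 and 85 bases before the start site. Rsad2 lies on the minus strand at chr12:26456453-26456702 and holds 1, which begins 120 bases before it.
Ifit1: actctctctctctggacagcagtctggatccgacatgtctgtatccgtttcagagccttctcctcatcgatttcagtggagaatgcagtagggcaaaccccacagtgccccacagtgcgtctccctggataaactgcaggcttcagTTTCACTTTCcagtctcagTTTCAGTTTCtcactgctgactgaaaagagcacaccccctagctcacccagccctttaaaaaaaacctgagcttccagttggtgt
Rsad2: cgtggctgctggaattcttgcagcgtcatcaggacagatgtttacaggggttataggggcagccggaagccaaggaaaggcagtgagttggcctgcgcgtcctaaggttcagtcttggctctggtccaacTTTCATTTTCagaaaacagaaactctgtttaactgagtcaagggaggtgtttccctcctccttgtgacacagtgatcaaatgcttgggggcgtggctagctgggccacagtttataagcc

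Cell-cycle genes changed slightly. Of 30 DNA replication and G1/S genes 20 fell and 1 rose (median log2 fold change −0.14), and of 28 mitosis and G2/M genes 18 fell and none rose (−0.13). Cdc6, which licenses replication origins, had 3874, 3857 and 4137 beside p53KO cells and 4508, 4624 and 4761 beside WT cells (−0.23 ± 0.03, adjusted p = 0.00075). The ribonucleotide reductase subunit Rrm2 had 18795, 18736 and 19509 beside p53KO cells and 23012, 21933 and 21709.9 beside WT cells (−0.22 ± 0.04, adjusted p = 0.0015). Neither overlapped between groups. The cyclin E gene Ccne1 fell by 0.19, and the single-strand DNA-binding subunits Rpa1 and Rpa2 by 0.20 and 0.22. The D-type cyclin Ccnd2 was the member that rose, with 14777, 14346 and 15912 beside p53KO cells and 11714, 12699.8 and 13762 beside WT cells (0.24 ± 0.04, adjusted p = 0.0011).

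Among mitotic genes the kinesin Kif20a had 9117, 8627 and 9341 beside p53KO cells and 10548, 10388 and 9938 beside WT cells (−0.19 ± 0.04, adjusted p = 0.0053), without overlap. The anaphase activator Cdc20 fell by 0.18, cyclin A2 gene Ccna2 by 0.18, and the kinase Plk1 by 0.18. Mki67 and Top2a did not pass, at −0.09 ± 0.04 and −0.09 ± 0.04. The Cdk inhibitors moved the other way, with 3 of 7 higher. Besides Cdkn1a, the imprinted Cdkn1c had 1698, 1713 and 1439 beside p53KO cells and 1238, 1245 and 1092 beside WT cells (0.44 ± 0.04, adjusted p = 5.3e-05) and Cdkn1b rose by 0.23 ± 0.04. Both were without overlap.

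E2F factors drive genes of the G1/S transition from sites near their start. The letters TTTNNCGC with G or C at both N, on either strand, were present within 250 bases before a start site of 8 of 22 G1/S members with a promoter in the table (36.4%), and of 2.16% of all 27025 genes. Of these 8, 6 fell and none rose. The pair with the largest falls is shown with the motif in capitals. Cdc6 lies on the plus strand at chr11:98907901-98908150, with a match beginning 138 bases before the start, and Mcm5, a subunit of the replicative helicase, on the plus strand at chr8:75109259-75109508, with 2 overlapping matches beginning 153 and 149 bases before it.
Cdc6: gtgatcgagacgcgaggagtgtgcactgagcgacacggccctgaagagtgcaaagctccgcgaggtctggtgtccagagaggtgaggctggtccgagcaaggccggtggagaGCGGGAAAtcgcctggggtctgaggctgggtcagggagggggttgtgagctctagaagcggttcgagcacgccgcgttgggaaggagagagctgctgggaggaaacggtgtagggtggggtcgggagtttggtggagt
Mcm5: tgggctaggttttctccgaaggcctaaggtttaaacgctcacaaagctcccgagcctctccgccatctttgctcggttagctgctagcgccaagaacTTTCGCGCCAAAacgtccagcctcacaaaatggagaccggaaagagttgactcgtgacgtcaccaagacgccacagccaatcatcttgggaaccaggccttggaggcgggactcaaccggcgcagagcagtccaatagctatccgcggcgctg

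The number of calls in the cell-cycle lists rested on the pairing and on replicate 2, whereas their medians changed little, to −0.14 and −0.13 without the pairing and −0.13 and −0.12 without replicate 2. Without the pairing edgeR called 2 G1/S and 0 G2/M members lower, with 20 and 17 at an unadjusted p under 0.05, and DESeq2 with the pairs called 17 and 15. With edgeR the counts were 5 and 0 without replicate 2, with 13 and 11 at an unadjusted p under 0.05. Ribosome biogenesis behaved alike, with 10 of 30 genes lower and none higher (median −0.09), 0 by edgeR without the pairing (14 at an unadjusted p under 0.05, 8 by DESeq2 with the pairs) and 1 without replicate 2 and 18 without replicate 3. Its members Bop1 and Heatr1 each fell by 0.19 and Ddx21 by 0.16. Myc, which drives ribosome synthesis, had 1849, 1952 and 2055 beside p53KO cells and 2206, 2381 and 2559 beside WT cells (−0.29 ± 0.04, adjusted p = 0.00041), with no overlap, and its relative Mycn had 8520.2 ± 601 and 8509 ± 465. The genes of the cytosolic ribosomal proteins leaned upwards, with 11 of 36 higher and a median of 0.10. The largest of these rises were Rpl35 and Rpl30, at 0.17 each, and TMM scaling left 6 members higher. With no pairing, edgeR called 0, with 12 at an unadjusted p under 0.05, and DESeq2 with the pairs 13. The count was 1 without replicate 2, 6 without replicate 3 and 22 without a filter on low counts. Reads of ribosomal protein genes may be shared with processed pseudogenes.

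Naive pluripotency genes leaned downwards, with 10 of 19 lower, none higher and a median of −0.19. Nr0b1, a nuclear receptor of the naive network, had 1308, 1441 and 1346 beside p53KO cells and 2108, 1979 and 1600.0 beside WT cells (−0.46 ± 0.07, adjusted p = 0.00052). Tfcp2l1, a factor of naive self-renewal, had 3408, 3548 and 4098 beside p53KO cells and 5301, 4827 and 5007 beside WT cells (−0.45 ± 0.05, adjusted p = 0.00012). Both were lower in every library beside p53KO cells. Zfp42, the marker Rex1, fell by 0.34, Nr5a2 by 0.41 and Klf4 by 0.33. Pou5f1, which is shared by naive and primed cells, had a log2 fold change of 0.04 ± 0.05. The fall was largest in pair 1 and smallest in pair 3, with pair medians of −0.46, −0.27 and −0.04. In p53KO–emiRFP cells Tfcp2l1 stood at 1543 ± 192 and Zfp42 at 2659 ± 187 normalised counts, below both WT–mCherry groups. Without the pairing 4 members were lower, and with DESeq2 and the pairs 5.

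Formative and primed markers rose in 5 of 14 and fell in none. Otx2, a factor of primed epiblast and anterior fate, had 433, 654 and 424 beside p53KO cells and 261, 366 and 189.7 beside WT cells (0.90 ± 0.09, adjusted p = 3.9e-05), without overlap. Fgf5, the classical marker of formative epiblast, had 195, 259 and 114 beside p53KO cells and 101, 122 and 63.9 beside WT cells (0.97 ± 0.12, adjusted p = 0.0002). Fgf5 rose within every pair, yet its level varied so much between replicates that the groups overlapped. Pou3f1 rose by 0.47 ± 0.14, Zic2 by 0.17 ± 0.04 and the de novo methyltransferase gene Dnmt3b by 0.15 ± 0.03. With no pairing, edgeR called 0, with 5 at an unadjusted p under 0.05, and DESeq2 with the pairs 3, and 2 were higher without replicate 2.

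The two-cell-like state, a rare state of mES cells that expresses genes of the cleavage-stage embryo, was represented by transcripts of low abundance. All 11 members with enough counts to be tested were higher, out of 15 listed, and the median log2 fold change was 0.81. Zscan4f had 121, 122 and 72.9 beside p53KO cells and 84.7, 49.5 and 35.6 beside WT cells (0.93 ± 0.18, adjusted p = 0.0035). Zscan4e had 144, 118 and 101 beside p53KO cells and 83.5, 62.4 and 48.3 beside WT cells (0.91 ± 0.14, adjusted p = 0.00094), and Usp17la 54.4, 62.7 and 40.6 beside p53KO cells and 22.9, 27.5 and 18.2 beside WT cells (1.19 ± 0.21, adjusted p = 0.0021). Zscan4f overlapped between groups, whereas Zscan4e and Usp17la did not. The Zscan4 and Usp17 copies are nearly identical, so reads may be split among them and the members are not independent. In p53KO–emiRFP cells these transcripts were scarcer, Zscan4f with 12.5 ± 9.17 and Zscan4e with 8.27 ± 6.17 (SD, n = 3 each). Without the pairing 1 member passed, with DESeq2 3, and without replicate 2 4.

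**Figure D4:**
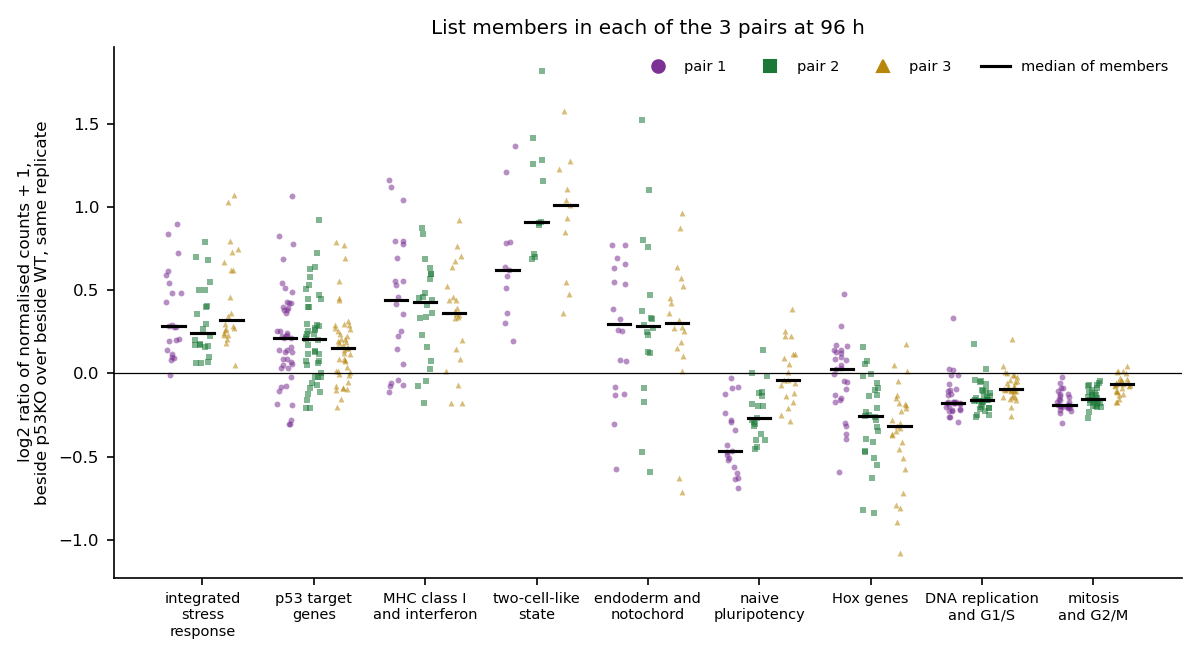
Log2 ratio of normalised counts + 1 in WT–mCherry cells beside p53KO over beside WT, for each tested member (points) of 9 gene lists in each of the 3 pairs, with black bars at the median of the members. The bars of the integrated stress response lie at 0.28, 0.25 and 0.32 and those of the two-cell-like state at 0.62, 0.91 and 1.01, while those of naive pluripotency run from −0.46 to −0.04 and those of the Hox genes from 0.03 to −0.32.

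Genes of the primitive streak divided, and of 15 tested 6 rose and 2 fell. The T-box factor T (Brachyury) had 32803, 35649 and 31862 beside p53KO cells and 25918, 29724 and 26773 beside WT cells (0.28 ± 0.04, adjusted p = 0.00026), without overlap. Wnt3, the ligand that initiates the streak, had 559, 790.3 and 432 beside p53KO cells and 327, 416 and 252 beside WT cells (0.83 ± 0.07, adjusted p = 1.5e-05), also without overlap. Mixl1 rose by 0.38 ± 0.05, Foxa2 by 0.62 ± 0.12 and Mesp2 by 0.71 ± 0.16. Eomes, a T-box factor of early mesendoderm, had 199.9, 281 and 219.6 beside p53KO cells and 315, 338 and 301 beside WT cells (−0.45 ± 0.10, adjusted p = 0.0073), with no overlap, and Lhx1 fell by 0.33. The presomitic markers Tbx6 and Msgn1 and the ligand Wnt3a had −0.08, −0.03 and 0.04, not past the threshold. Without the pairing 1 streak gene was higher and 1 lower, with 6 and 2 at an unadjusted p under 0.05, and DESeq2 with the pairs called 5 and 2.

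In the Nodal pathway 4 of 15 members fell and 1 rose. The ligand Nodal had 0.04 ± 0.05, which did not pass. Besides Lefty2, Lefty1 had 6529, 7823 and 6098 beside p53KO cells and 7893, 8933 and 7746 beside WT cells (−0.27 ± 0.04, adjusted p = 0.0004), with a slight overlap. The ligand Gdf3 had 875, 968 and 939 beside p53KO cells and 1433, 1359 and 1130.2 beside WT cells (−0.49 ± 0.07, adjusted p = 0.00055), without overlap, and the convertase Pcsk6 fell by 0.27. The co-factor Foxh1 rose by 0.28 ± 0.04, and the co-receptor Tdgf1 (0.20) and Smad2 (−0.02) did not pass. In the unpaired fit 2 Nodal pathway members were lower, and 4 were lower and 4 higher without replicate 1. Of 19 Wnt target and feedback genes 6 fell and T rose. Nkd2, a Dishevelled-binding feedback inhibitor, had 1297, 1123 and 1589 beside p53KO cells and 1815, 1767 and 2400.0 beside WT cells (−0.58 ± 0.05, adjusted p = 7.9e-06), without overlap. The antagonist Dkk1 fell by 0.42 and the destruction-complex gene Axin2 by 0.14, and Sp5 (−0.09) did not pass. With edgeR and no pairing 1 Wnt target was lower and 0 higher (3 and 1 at an unadjusted p under 0.05, and 4 and 1 by DESeq2 with the pairs), and 3 were lower without replicate 2. Of 18 Wnt ligands and antagonists 3 rose and 2 fell, which were Wnt3, Wnt8a (0.34 ± 0.04) and Wnt6 (0.36 ± 0.06) against Dkk4 and Dkk1. In the unpaired fit by edgeR 0 of them were higher and 1 lower (3 and 1 at an unadjusted p under 0.05, 3 and 2 by DESeq2 with the pairs).

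Of 27 Hox genes 12 fell and 1 rose, with a median of −0.22. Hoxa9 had 302, 234 and 391 beside p53KO cells and 398, 414 and 830.1 beside WT cells (−0.80 ± 0.11, adjusted p = 0.00036) and Hoxa7 796, 619.9 and 924 beside p53KO cells and 978, 959 and 1597 beside WT cells (−0.58 ± 0.08, adjusted p = 0.00031). Both were lower in every library beside p53KO cells. Hoxc8, Hoxc9, Hoxc6 and Hoxb6 fell by 0.60, 0.57, 0.36 and 0.34 with overlapping groups. The member that rose was Hoxb1, the earliest of them to be expressed in the streak (log2 fold change 0.17 ± 0.03, adjusted p = 0.0039). Pair 1 did not share the fall, with a median of 0.03 where pairs 2 and 3 had −0.25 and −0.32, and without the pairing edgeR called no Hox gene, with 2 lower and 1 higher at an unadjusted p under 0.05. DESeq2 with the pairs called 6 lower.

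Cdx4, a caudal regulator of Hox genes, had 2027, 1149 and 2349.6 beside p53KO cells and 3009, 2284 and 4317 beside WT cells (−0.81 ± 0.06, adjusted p = 6.0e-06). Cdx4 fell within every pair, but replicate 2 was the lowest in both groups and the groups overlapped. Cdx1 fell by 0.25 and Cdx2 had 0.01 ± 0.04. Over the 17 caudal epiblast and Cdx genes tested 4 rose and 5 fell, with a median of −0.01, and edgeR without the pairing called 1 higher and 1 lower, and without replicate 2 it called 3 and 3. In the retinoic acid pathway 7 of 13 members fell. The retinoic acid-degrading enzyme Cyp26a1 had 1504, 1153 and 1641 beside p53KO cells and 2202, 1884 and 2532 beside WT cells (−0.63 ± 0.04, adjusted p = 3.3e-06), without overlap. The receptor Rarb fell by 0.50, the responsive gene Stra8 by 0.61 and the reductase gene Dhrs3 by 0.31, whereas the retinol dehydrogenase Rdh10 rose by 0.35 ± 0.06. The synthesising enzyme Aldh1a2 had 6571 ± 1138 and 6947 ± 971 normalised counts and did not pass. With no pairing, edgeR called 0 members of this pathway lower, with 5 at an unadjusted p under 0.05, and DESeq2 with the pairs 5, and 4 were lower without replicate 2.

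Of 19 presomitic and paraxial genes 7 fell and 3 rose. The forkhead factor Foxc2 had 404, 316 and 659 beside p53KO cells and 744, 559 and 1170.3 beside WT cells (−0.84 ± 0.06, adjusted p = 3.9e-06), with overlap, and Pcdh19, Foxc1 and Meox1 fell by 0.49, 0.40 and 0.37. Among 16 Notch and segmentation-clock genes 6 fell and 3 rose, with the ligand Dll1 at −0.25 ± 0.04 and the feedback gene Nrarp at −0.44 ± 0.06. Of 9 intermediate mesoderm genes 4 fell, and these were Osr1, Sim1, Pax2 and Lhx1. The 17 lateral plate and cardiac genes tested had 3 higher, 1 lower and a median of 0.08. Of these 0 were higher by edgeR without the pairing (3 at an unadjusted p under 0.05), 1 by DESeq2 with the pairs, and 1 each without replicate 1 and without replicate 2. With no pairing, edgeR called no presomitic and no Notch gene, with 2 and 0 lower at an unadjusted p under 0.05, and DESeq2 with the pairs called 7 and 4 lower. The 3 risen presomitic and paraxial genes became 0 by DESeq2 with the pairs (3 at an unadjusted p under 0.05) and 1 by edgeR without replicate 2. Leaving out replicate 3 gave 5 higher and 5 lower Notch genes, and leaving out replicate 2 gave 1 and 3. Of the intermediate mesoderm genes 1 was lower without the pairing, 1 by DESeq2 with the pairs, and 4 and 2 after subtraction of emiRFP-cell RNA by H2bc14 and H2bc21.

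Among endoderm and notochord genes rises prevailed, with 9 of 18 higher, 1 lower and a median of 0.34. Noto, a notochord homeobox gene, had 83.7, 155 and 72.9 beside p53KO cells and 57.2, 71.5 and 39.2 beside WT cells (0.88 ± 0.16, adjusted p = 0.0029). The claudin Cldn7, of epithelial junctions, had 521, 582 and 394 beside p53KO cells and 322, 343 and 202 beside WT cells (0.80 ± 0.08, adjusted p = 4.3e-05). Both were without overlap. The pioneer factor Foxa2 had 195, 268 and 142 beside p53KO cells and 125, 153 and 110.4 beside WT cells (0.62 ± 0.12, adjusted p = 0.0039) and Sox17 129.7, 98.3 and 48.9 beside p53KO cells and 75.5, 83.5 and 31.0 beside WT cells (0.54 ± 0.17, adjusted p = 0.041), and both overlapped. The chemokine receptor Cxcr4 was the member that fell, by 0.60. Foxa2 and Noto were more abundant in p53KO–emiRFP cells, at 263 ± 61.3 and 155 ± 53.2 (SD, n = 3 each), and after subtraction by H2bc14 9 members were higher. Cubn, an endocytic receptor of visceral endoderm and kidney, had 394, 389 and 186 beside p53KO cells and 213, 155 and 100.3 beside WT cells (1.05 ± 0.11, adjusted p = 6.3e-05), with overlap, in the extraembryonic endoderm list, where 4 of 9 tested members rose and 1 fell (none without the pairing by edgeR, with 2 higher at an unadjusted p under 0.05, and 2 higher by DESeq2 with the pairs). Without the pairing edgeR called 0 members of the endoderm list higher, with 8 at an unadjusted p under 0.05, and DESeq2 with the pairs 8.

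Imprinted genes moved in both directions, with 7 of 20 higher and 8 lower. H19, a maternally expressed RNA, had 7826, 6477 and 11539 beside p53KO cells and 11139, 10312 and 17230.2 beside WT cells (−0.59 ± 0.04, adjusted p = 1.7e-06), with overlap, and the growth factor gene Igf2 beside it had 318, 238 and 265 beside p53KO cells and 412, 387 and 499 beside WT cells (−0.67 ± 0.10, adjusted p = 0.00075), without. Dlk1 fell by 0.50. Grb10, an inhibitor of insulin signalling, had 2546, 3026 and 1823 beside p53KO cells and 1734, 1830.0 and 1146 beside WT cells (0.65 ± 0.04, adjusted p = 2.4e-06). Grb10 had 28405 ± 1166 in p53KO–emiRFP and 21615 ± 1226 in WT–emiRFP cells, and H19 176 ± 40.7 and 567 ± 97.8 (SD, n = 3 each), both far from their levels in the WT–mCherry libraries, and the groups of Grb10 overlapped by a small margin. After subtraction of emiRFP-cell RNA by H2bc14, Grb10 had a log2 fold change of 0.39 and H19 of −0.56. By H2bc21 Grb10 had 0.11 and no longer passed (edgeR adjusted p = 0.900), and H19 had −0.56. That second subtraction may be too large, because the H2bc21 background was not taken off. Without the pairing 3 imprinted genes were higher and 4 lower.

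Circadian clock genes rose in 8 of 16 and fell in none (median 0.20). Besides Bhlhe41, its paralogue Bhlhe40 had 1299.6, 1754 and 1148 beside p53KO cells and 902, 1059 and 716 beside WT cells (0.65 ± 0.05, adjusted p = 1.0e-05), without overlap. The PAR bZIP factors Dbp and Tef rose by 0.30 ± 0.07 and 0.28 ± 0.04 and the period gene Per1 by 0.24 ± 0.06. The core activator gene Clock had −0.04 ± 0.05 and did not pass. Clock factors bind the E-box CACGTG, which was found on either strand within 250 bases before a start site of 5 of 14 members with a promoter in the table (35.7%), all 5 of them higher, and of 6.86% of all 27025 genes. The window of Bhlhe41, the gene with the largest rise, lies on the minus strand at chr6:145865421-145865670, and its E-box, in capitals, begins 153 bases before the start site. Without the pairing 2 clock genes were higher, with DESeq2 and the pairs 5, and without replicate 2 4.
Bhlhe41: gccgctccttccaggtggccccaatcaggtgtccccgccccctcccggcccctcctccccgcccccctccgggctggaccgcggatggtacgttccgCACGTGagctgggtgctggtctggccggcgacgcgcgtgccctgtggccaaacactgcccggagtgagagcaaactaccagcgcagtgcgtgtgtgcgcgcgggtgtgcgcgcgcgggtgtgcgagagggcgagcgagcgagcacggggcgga

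Metabolic lists moved little. Of 25 cholesterol and fatty acid synthesis genes 9 rose and none fell, among them the regulator gene Srebf1 at 0.18 ± 0.04, and edgeR called 0 without the pairing, with 10 at an unadjusted p under 0.05, and DESeq2 5 with it. Leaving out replicate 2, edgeR called 0 of them, with 7 higher at an unadjusted p under 0.05. Of 30 glycolysis and hypoxia genes 8 rose and 2 fell, with the angiogenic factor Vegfa at 0.49 ± 0.04, the lactate exporter Slc16a3 at 0.32 ± 0.05 and the glucose transporter Slc2a3 at −0.23 ± 0.04. Gapdh, Pkm and Eno1 had −0.05, −0.04 and −0.12 and did not pass. In the unpaired fit 1 glycolysis and hypoxia gene was higher, and the number higher was 16 without replicate 1 and 4 without replicate 2. The mitochondrially encoded genes mt-Nd1 and mt-Nd2 fell by 0.26 each, and the 11 tested members had pair medians of 0.08, −0.33 and −0.26. These calls followed the pairs kept, since 9 members were lower without replicate 1 and, by edgeR, 0 without replicate 2 (4 at an unadjusted p under 0.05) and 0 without the pairing (0 at an unadjusted p under 0.05, 2 by DESeq2 with the pairs).

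Other lists had fewer or mixed calls. Of the 24 FGF and ERK genes 5 rose, among them the immediate-early genes Fos (0.55 ± 0.15) and Egr1 (0.37 ± 0.08), while the ERK-responsive factor Etv4 fell by 0.33. Of the 10 germ cell genes 3 rose and 3 fell, with Nanos3 at −0.52 ± 0.10 and Tfap2c at −0.39 ± 0.06. Of the 17 genes of cadherins and epithelial-mesenchymal transition 4 rose and 3 fell, with the intermediate filament gene Vim at 0.39 ± 0.03. In the unpaired fit the higher and lower members numbered 1 and 1 for FGF and ERK, 0 and 2 for germ cell and 0 and 1 for cadherin and transition genes by edgeR, with 0 germ cell and 3 cadherin and transition genes higher at an unadjusted p under 0.05, where DESeq2 with the pairs called 1 and 4. Haematoendothelial, BMP, neural, neural crest, lateral plate, YAP and collagen lists had at most 4 members past the threshold in either direction. Named members among them were the neural crest factors Ets1 (0.59 ± 0.06) and Sox10 (0.87 ± 0.22), the neural factor Pax6 (−0.52 ± 0.13), the cardiac factor Hand1 (0.71 ± 0.23), the BMP antagonist Chrd (0.51 ± 0.11) and the YAP target Ccn2 (−0.38 ± 0.08).

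The same paired fit at the other time points called 2.09% of genes higher and 5.39% lower at 48 h. At 72 h these shares were 1.72 and 1.87%. They were 8.69 and 7.88% at 120 h, then 13.6 and 20.7% at 144 h. These fits share no library with that of 96 h. The lists followed different courses. Integrated stress response genes were higher in 2, 12, 21, 9 and 6 members at the 5 times from 48 to 144 h, and at 144 h 6 were lower, with a median of 0.02. Targets of p53 were higher in 4, 0, 25, 21 and 22. The MHC class I and interferon list had 0, 15 and 7 higher members at the middle 3 times, with 3 lower at 72 h, and the two-cell-like list 0, 11 and 0. The two-cell-like list was lower in 8 members at 48 h (median −0.46) and in 6 at 144 h (−0.31). Naive pluripotency genes were lower in 14 members at 48 h (median −0.32), in 16, 10 and 13 at the middle 3 times, and higher in 9 at 144 h.

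**Figure D5:**
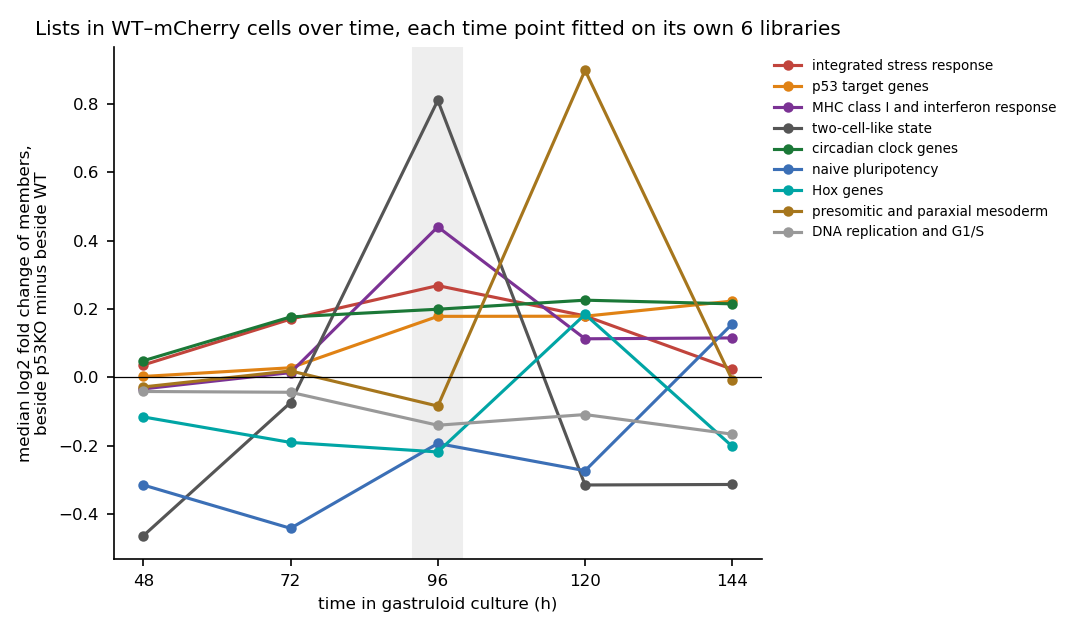
Median log2 fold change over the tested members of 9 gene lists in WT–mCherry cells beside p53KO minus beside WT at 48, 72, 96, 120 and 144 h, each time point fitted on its own 6 libraries, with 96 h shaded. The two-cell-like list peaks at 96 h with 0.81, and the presomitic and paraxial list moves from −0.08 at 96 h to 0.90 at 120 h.

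The change of the neighbour effect between time points was tested directly in one fit of the 18 libraries of 72, 96 and 120 h. From 72 to 96 h it changed for 192 genes upwards (1.01% of 19057) and 37 downwards (0.194%). For Dusp8 the log2 fold change went from −0.12 at 72 h to 1.30 at 96 h (difference 1.42 ± 0.20, adjusted p = 0.0012). Cubn went from −0.50 to 1.05 (1.55 ± 0.24, adjusted p = 0.0030), and the interferon-induced GTPase gene Gbp2 from −0.91 to 0.50 (1.42 ± 0.19, adjusted p = 0.00093), whose reads may be shared with Gbp2b. In the other direction Nkd2 went from 0.21 to −0.58 (−0.79 ± 0.12, adjusted p = 0.0030) and H19 from 0.13 to −0.59 (−0.72 ± 0.13, adjusted p = 0.0071). Of the p53 targets 5 and of the MHC and interferon genes 3 gained, of the two-cell-like genes 1 of 12, and of the integrated stress response genes 0. Of 19 naive pluripotency genes 3 moved upwards and none downwards, where the list median was −0.44 at 72 h and −0.19 at 96 h. Without the pairing no gene passed this test with edgeR, and 1002 had an unadjusted p under 0.05, while DESeq2 with the pairs called 232.

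From 96 to 120 h the effect changed for 432 genes upwards (2.27%) and 494 downwards (2.59%). Over 19057 genes tested, 15 of 19 Wnt target and feedback genes, 14 of 22 presomitic and paraxial genes, 13 of 17 caudal epiblast genes and 11 of 27 Hox genes moved upwards, and none of these lists had a member that moved downwards. The same held for the primitive streak (9 of 16), Notch (9 of 18), Wnt ligand and antagonist (8 of 18) and retinoic acid (6 of 14) lists. Dkk4 went from −1.14 to 1.35 (difference 2.49 ± 0.45, adjusted p = 0.0025). Its value at 120 h rested on means of 14.8 ± 6.64 normalised counts beside p53KO and 5.52 ± 3.50 beside WT cells (SD, n = 3 each) and did not pass by itself (edgeR adjusted p = 0.075). Msgn1 went from −0.03 to 1.87 (1.88 ± 0.18, adjusted p = 5.9e-06) and Aldh1a2 from −0.08 to 1.71 (1.79 ± 0.16, adjusted p = 3.9e-06). The level of Msgn1 fell in both groups, from means of 7066 and 7204 at 96 h to 503 and 140 at 120 h. Fgf5 turned the other way, from 0.97 to −1.21 (−2.19 ± 0.17, adjusted p = 1.2e-06), and Trim67, a ubiquitin ligase of neurons, from 0.85 to −0.81 (−1.67 ± 0.18, adjusted p = 1.5e-05). At 120 h both were scarce beside p53KO and WT cells, with means of 49.2 and 114 for Fgf5 and 30.8 and 54.2 for Trim67. At 96 h Trim67 had 2223 and 1243. The lists with the most members moving downwards were the two-cell-like state (7 of 12), the Nodal pathway (6 of 16), formative and primed markers (5 of 14) and imprinted genes (5 of 20). Upwards moved 4 imprinted genes and 2 formative and primed markers, and no member of the two-cell-like and Nodal lists. Of the 22 MHC and interferon genes 4 moved downwards and 2 upwards, and of the 22 integrated stress response genes 4 and 1. Bhlhe41 had 1.78 at 120 h and 1.76 at 144 h. Without the pairing 152 genes passed.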

How the data were processed

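The deposited table holds whole-number read counts per gene for 69 libraries, which the authors made from bulk RNA sequencing of sorted cells with Trim Galore 0.6.7 and STAR 2.7.11b on GRCm38.p6, counting uniquely mapped reads. Which strand setting the counts use is not given in the sources used here, so overlapping and antisense genes are uncertain, as are near-identical copies. The study gives its replicates as separate experiments.

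Counts were scaled by median-of-ratios size factors over all 69 libraries, and normalised counts are on that scale. Genes were filtered with filterByExpr and tested in R 4.3.3 with the quasi-likelihood test of edgeR 4.0.16 (limma 3.58.1), with the replicate number as a block and Benjamini-Hochberg adjustment over 17604 genes. Fold changes are on the log2 scale with their SE. The fit leaves 2 residual degrees of freedom, and the spread came mostly from all genes together (median prior degrees of freedom 10.6). Same-numbered libraries deviated together over 13783 genes with a mean count of at least 50 (r = 0.134, 0.596 and 0.544), whereas the highest correlations with another number were 0.009, 0.071 and −0.158. For replicate 1 this was weak. Deviations were taken from each group's own mean, which by itself lowers the correlations with other numbers. Pairing at the other time points was not examined.

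The 6 libraries hold 46254303 to 57445005 counts. Named genes are the 15 largest rises and falls with a mean of at least 1 log2 CPM that also passed with 12 libraries and no block and kept 1 direction in all 3 pairs, up to 6 largest changes and 3 most abundant members not past the threshold of each list, and up to 5 changes in each direction between time points. Tigar, Phlda3, Ifitm1, B2m, H2-K1, H2-D1, Hoxb1 and Nodal were added after their values were seen. The members and lists were chosen with earlier results of these data known. Promoter windows come from RefSeq on GRCm38.p6. The lists searched for a motif include known targets of the factors that bind it, so a high share is no independent evidence. The 27025 genes beside them include genes not tested here. Alternatives were TMM scaling, no filter, no block, all 12 libraries of 96 h, DESeq2 1.42.0, leaving out each pair, a minimum change and subtraction of emiRFP-cell RNA. The steps were tested on simulated data. Some named genes are not reported here.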

Additional observations from a re-analysis of the deposited data

Results flagged for a closer look

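The neighbour effect in WT–mCherry cells differed between time points by edgeR's test of the difference itself in the 20 cases given here, the 5 largest in each direction and interval among genes with a mean of at least 1 log2 CPM, and Gbp2b is among them in both intervals. From 72 to 96 h the log2 fold change rose by 1.58 for Gbp2b, 1.55 for Cubn, 1.42 for Dusp8, 1.42 for Gbp2 and 1.40 for Gm5039. It shifted by −0.86 for Foxn4, −0.79 for Nkd2, −0.79 for Vwa2, −0.72 for H19 and −0.71 for Cacna1g over the same interval. From 96 to 120 h it rose by 2.49 for Dkk4, 1.99 for Ptgds, 1.88 for Msgn1, 1.79 for Aldh1a2 and 1.68 for Dkk1, and at 120 h Dkk4 had means of only 14.8 and 5.52 normalised counts. It shifted by −2.19 for Fgf5, −1.69 for Gbp2b, −1.69 for Cd36, −1.67 for Trim67 and −1.56 for Wt1 in that later interval. Other end points were scarce too, with Gbp2b at 30.3 and 58.7 and Trim67 at 30.8 and 54.2 at 120 h. At 72 h Gbp2b had 23.0 and 41.5 and Gbp2 30.6 and 58.0, beside p53KO and beside WT cells in each case. Without the replicate pairs 7 of the 20 passed the threshold, and with DESeq2 and the pairs 19 did. Gbp2b and Gbp2 are near-identical copies whose reads may be split between them.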

How the results depend on the processing

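The count of genes that differed by neighbour at 96 h rested on the replicate pairing. Against 3145 genes with the block, 275 passed with no replicate block, 720 with 12 libraries and no replicate block, and 3826 with 12 libraries and the block. DESeq2 with the block called 1667. When each gene was tested against a minimum absolute log2 fold change of 1, edgeR called 0, with 37 at an unadjusted p under 0.05. Leaving out 1 pair gave 1297 to 4357 genes, the lowest without replicate 2, and the cause was not tested. TMM scaling (3263), no filter (3732) and subtraction of emiRFP-cell RNA by H2bc14 (3206) or H2bc21 (3183) stayed within 1.5 times of 3145. The difference between 96 and 72 h had 229 genes with the block, 0 without it by edgeR (1002 at an unadjusted p under 0.05), 232 with DESeq2, 585 without a filter and 59 to 99 without 1 pair (59 without replicate 1, 95 without replicate 2 and 99 without replicate 3). The difference between 120 and 96 h had 926 genes with the block, 152 without it and 403 to 669 without 1 pair (403 without replicate 2 and 544 without replicate 3). Of 221 named values past the threshold, 48 stayed past it with no block, 143 without replicate 2, 202 without replicate 1, 213 without replicate 3 and 220 with TMM, and DESeq2 kept 164 of 209. None of these changed sign. Trp53, not past the threshold, turned to a log2 fold change of 0.042 after subtraction by H2bc21, which may be too large. The SE was larger for scarce genes, at 0.12 to 0.22 for the Zscan4 and Usp17 genes and 0.23 and 0.24 for Ifit1 and Rsad2, against 0.04 for Rrm2 and T, and the part of depth in it was not tested.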
